A study of Mus musculus with 11 samples.

Results

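Mpo, Prtn3, Camp, Ngp, Ltf, Lcn2, S100a8, S100a9 and Chi3l3 encode proteins of neutrophil granules and of the neutrophil and myeloid cytoplasm. They were chosen by name from the gene name column of the arrays, with earlier results of these data known, and all 9 were among the 16704 genes tested, out of 27962 gene names on the array. They are measured by 10 probes, of which Ltf has 2, and no value was missing on any array. RNA from normal mouse liver was hybridised to 11 Agilent arrays with 2 colours, 3 at E14.5 (embryonic day 14 in the labels), 3 at E18.5 (embryonic day 18), 2 at P5 (post-natal day 5, replicates 2 and 3) and 3 at P56 (post-natal day 56). The developing or adult liver was labelled with Cy5 throughout, and a commercial RNA pool of normal adult liver, the same on each array, with Cy3, without a dye swap. The values are log2 ratios of Cy5 over Cy3, so that 0 is the level of the adult reference. The labels give liver as the tissue of every array, with hepatoblasts as the cell type at E14.5, immature hepatocytes at E18.5 and hepatocytes at P5 and P56, and give no genotype or treatment. The methods speak both of whole livers and of hepatoblasts and immature hepatocytes isolated from C57BL/6 embryos with an antibody to E-cadherin, and which of these an embryonic array holds is not settled.

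Neutrophils arise in steps, and their granules are filled in the order in which the cells mature. Promyelocytes make the azurophil granules with myeloperoxidase and serine proteases, and myelocytes and later cells make the specific and gelatinase granules with lactoferrin, cathelicidin and lipocalin. The fetal liver is the main site of blood formation in mid and late gestation, and after birth this role passes to the bone marrow. In RNA from a whole tissue, fewer cells of a type and less RNA per cell cannot be told apart.

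The probes and the start regions of the genes are shown first, since they define what was measured. The letters below are those in the array files for the genes the results turn on, in the 5′ to 3′ direction, with positions on build mm7. The gene annotation of that build was not used here, so exons are not stated.
Prtn3 (chr10:79661141-79661957): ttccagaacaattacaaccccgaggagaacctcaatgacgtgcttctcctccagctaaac
Camp (chr9:109544107-109544166): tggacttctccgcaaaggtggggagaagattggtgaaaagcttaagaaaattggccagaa
Ngp (chr9:110119702-110120250): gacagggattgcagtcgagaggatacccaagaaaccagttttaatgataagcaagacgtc
Ltf, the brighter probe (chr9:110738071-110738130): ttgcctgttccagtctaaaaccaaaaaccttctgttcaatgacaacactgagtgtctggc
Ltf, the other probe (chr9:110733462-110736512): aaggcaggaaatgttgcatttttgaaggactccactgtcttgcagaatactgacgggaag
Lcn2 (chr2:32392828-32393072): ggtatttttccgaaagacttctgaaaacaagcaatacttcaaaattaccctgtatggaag
S100a8 (chr3:90800058-90800117): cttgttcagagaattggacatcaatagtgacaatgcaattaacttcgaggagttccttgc
The regions listed for Prtn3, Ngp, Lcn2 and the other Ltf probe are longer than the 60 bases of the probe. The probe of Mpo lies at chr11:87873508-87874283, that of S100a9 at chr3:90822865-90822924 and that of Chi3l3 at chr3:105965855-105965914. Camp, Ngp and Ltf share chromosome 9, and S100a8, S100a9 and Chi3l3 share chromosome 3.

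All 9 genes had a promoter among the RefSeq sequences used here (build GRCm38.p6), where Chi3l3 is named Chil3. Because the genes moved together in the values below, the 250 bases before each start were searched on both strands for the letters TTGCNNAA of the C/EBP family and GAGGAA of PU.1, factors of granulocyte differentiation. The C/EBP letters were present before 4 of the 9 genes (Ngp, Ltf, Lcn2 and S100a9), against 9.56% of 32851 promoters. The PU.1 letters were present before 5 of the 9 (Mpo, Prtn3, Ltf, Lcn2 and S100a8), against 23.3% of promoters. These are descriptions of letters and not of binding. The erythroid GATA letters GATAAG were found before 0 of the 9 genes, against 6.55% of promoters. The regions of 4 genes are shown because they hold matches to both motifs or a repeated match, in lower case with the C/EBP or PU.1 matches of either strand in capitals.
Mpo (chr11:87793534-87793783, plus strand): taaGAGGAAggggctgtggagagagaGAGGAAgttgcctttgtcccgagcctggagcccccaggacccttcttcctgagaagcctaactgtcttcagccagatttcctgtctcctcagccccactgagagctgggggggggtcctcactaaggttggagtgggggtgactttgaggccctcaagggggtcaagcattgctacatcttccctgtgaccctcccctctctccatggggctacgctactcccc
Ngp (chr9:110419558-110419807, plus strand): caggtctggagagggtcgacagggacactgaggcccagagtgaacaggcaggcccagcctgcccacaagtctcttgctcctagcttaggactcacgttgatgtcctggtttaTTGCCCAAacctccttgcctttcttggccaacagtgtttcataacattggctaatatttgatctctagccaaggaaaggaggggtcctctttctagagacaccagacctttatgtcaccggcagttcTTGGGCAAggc
Ltf (chr9:111019042-111019291, plus strand): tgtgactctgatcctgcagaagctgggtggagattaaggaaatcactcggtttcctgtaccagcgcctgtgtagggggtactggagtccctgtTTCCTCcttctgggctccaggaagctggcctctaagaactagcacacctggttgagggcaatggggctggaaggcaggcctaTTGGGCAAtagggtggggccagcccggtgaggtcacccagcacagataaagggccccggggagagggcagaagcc
S100a8 (chr3:90668821-90669070, plus strand): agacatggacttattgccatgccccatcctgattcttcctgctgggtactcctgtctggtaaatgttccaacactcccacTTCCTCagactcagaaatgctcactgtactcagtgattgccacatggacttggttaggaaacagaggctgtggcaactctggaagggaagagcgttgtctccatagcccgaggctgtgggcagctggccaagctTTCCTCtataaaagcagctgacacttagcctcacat
Lcn2, not shown, also held 1 of each motif, at 216 bases for C/EBP and 20 for PU.1. Mpo held 2 PU.1 matches, 247 and 224 bases before the start. Ngp held 2 C/EBP matches, 138 and 11 bases before it, and Ltf held 1 of each motif, at 157 bases for PU.1 and 75 for C/EBP. S100a8 held 2 PU.1 matches, at 170 and 36 bases, and its TATAAA letters, 30 bases before the start, directly followed the nearer one. No matches to different motifs overlapped.

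All 9 genes were lower at E14.5 than at E18.5 and lower at P56 than at P5. The rise between the embryonic stages ran from 0.99 for Prtn3 to 5.91 for Chi3l3 on the log2 scale, with a median of 3.22, while the median of all genes was -0.01. From E18.5 to P5 the median change was -0.74, and from P5 to P56 it was -3.97, against all-gene medians of 0.00 and -0.02. These values chose the genes and are given as a description. E18.5 stood highest, then P5, for 7 of the 9. The arrays of these 2 stages overlapped for S100a8, and for S100a9 their order was not measured because its spot was saturated at both.

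**Figure D1:**
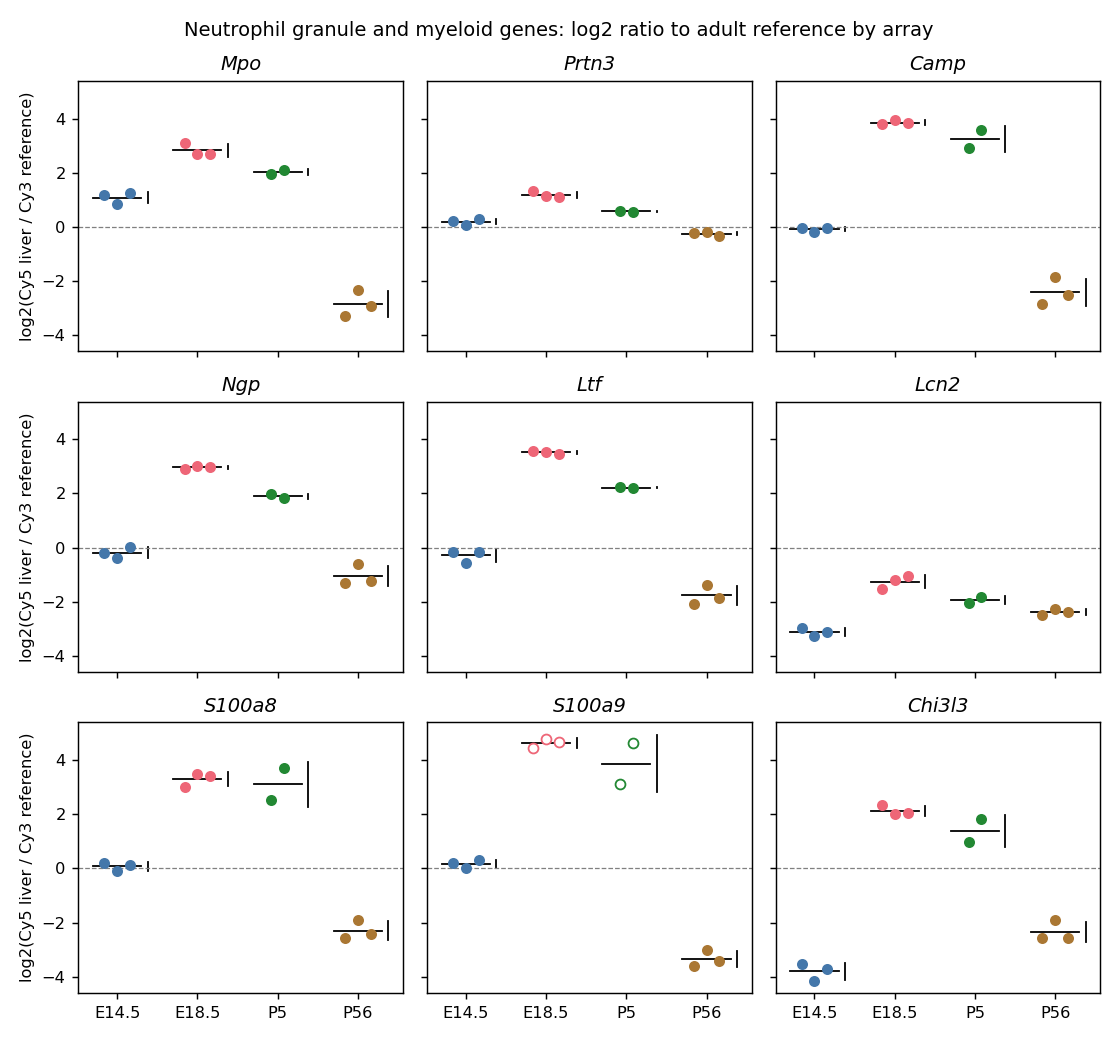
Log2 ratio of liver (Cy5) over adult reference (Cy3) for each of the 9 genes, with 1 point per array, a horizontal line at the stage mean and a vertical bar of 1 SD either side of it. Open points of S100a9 mark arrays on which its Cy5 spot was saturated. All E18.5 and P5 points lie above all E14.5 and P56 points in every panel, and Lcn2 alone stays below the reference on all 11 arrays.

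Mpo encodes myeloperoxidase, the haem enzyme of azurophil granules that makes hypochlorous acid. Its log2 ratios were 1.16, 0.84 and 1.25 on the E14.5 arrays, 3.10, 2.70 and 2.68 on the E18.5 arrays, 1.95 and 2.09 on the P5 arrays, and -3.28, -2.34 and -2.91 on the P56 arrays. The 4 stages did not overlap, and the liver was above the adult reference already at E14.5, with a mean of 1.09 ± 0.214 (SD, n = 3). The log2 fold change was 1.74 (SE 0.21) from E14.5 to E18.5, -0.80 (SE 0.23) from E18.5 to P5 and -4.86 (SE 0.23) from P5 to P56. Between the ends of the course, from E14.5 to P56, Mpo changed by -3.93 (SE 0.21).

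Prtn3 encodes proteinase 3, a serine protease of the same granules. The log2 ratios were 0.22, 0.09 and 0.28 on the E14.5 arrays, 1.32, 1.13 and 1.09 on the E18.5 arrays, 0.58 and 0.57 on the P5 arrays, and -0.24, -0.18 and -0.32 on the P56 arrays. The stages again kept apart from each other, over a range much narrower than that of Mpo. Its Cy5 spot was dim, with intensities of 245 to 342 at E18.5 and 44 to 65 at P56, and it was well above background on 1 of the 3 P56 arrays and on all arrays of the other stages. Its changes were 0.99 (SE 0.10), -0.61 (SE 0.11) and -0.82 (SE 0.11) on the log2 scale over the 3 successive steps.

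Camp, Ngp and Ltf, of the later granules, were close to the adult reference at E14.5 and above it at E18.5. Camp encodes cathelicidin, the precursor of an antimicrobial peptide of specific granules. Its log2 ratios were -0.03, -0.18 and -0.05 on the E14.5 arrays, 3.79, 3.94 and 3.82 on the E18.5 arrays, 2.89 and 3.59 on the P5 arrays, and -2.84, -1.86 and -2.52 on the P56 arrays. The spread between the P5 arrays (SD 0.494) was larger than that between the E18.5 arrays (SD 0.0807), though the stages did not overlap. The change from E14.5 to E18.5 was 3.94 (SE 0.22) and that from P5 to P56 was -5.65 (SE 0.25).

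Ngp encodes neutrophilic granule protein, a cystatin-like protein of specific granules. The log2 ratios were -0.18, -0.39 and 0.02 on the E14.5 arrays, 2.91, 3.02 and 2.98 on the E18.5 arrays, 1.97 and 1.84 on the P5 arrays, and -1.30, -0.62 and -1.24 on the P56 arrays. From E14.5 to E18.5 Ngp changed by 3.16 (SE 0.17) as a ratio and by 4.14 in the Cy5 channel alone. The Cy3 intensity of its spot, from the same reference RNA, was 159 to 228 at E14.5 and 432 to 528 at E18.5. The cause of this difference in Cy3 was not tested. Both P5 arrays lay below all 3 E18.5 arrays, with a change of -1.07 (SE 0.19). Only 1 of the 3 P56 arrays had a Ngp spot well above background, so the change of -2.96 (SE 0.19) from P5 to P56 rests in part on spots not well above background.

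Ltf encodes lactoferrin, the iron-binding protein that marks specific granules. By its brighter probe the log2 ratios were -0.14, -0.56 and -0.16 on the E14.5 arrays, 3.57, 3.53 and 3.45 on the E18.5 arrays, 2.22 and 2.19 on the P5 arrays, and -2.07, -1.38 and -1.85 on the P56 arrays. From E14.5 to E18.5 Ltf changed by 3.81 (SE 0.16) as a ratio and by 4.62 in the Cy5 channel alone. The Cy3 intensity of this probe was 394 to 585 at E14.5 and 877 to 1240 at E18.5, and the cause was not tested. Its change between E18.5 and P5, -1.31 (SE 0.18), was the largest of the 8 genes measured at both stages without saturation. The other probe, in a different region of the gene, gave stage means of -0.19, 3.55, 2.21 and -1.20, so both probes gave the same order of stages, E18.5, P5, E14.5 and P56 from the highest down.

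Lcn2 encodes lipocalin 2, which binds bacterial siderophores and which hepatocytes also secrete in the acute phase. It was below the adult reference on every array, with log2 ratios of -2.96, -3.25 and -3.13 on the E14.5 arrays, -1.53, -1.20 and -1.06 on the E18.5 arrays, -2.04 and -1.83 on the P5 arrays, and -2.48, -2.26 and -2.36 on the P56 arrays. Its stages did not overlap, but E14.5 and not P56 was the lowest stage. The step from P5 to P56 was -0.43 (SE 0.15), the smallest of the 9, against a rise of 1.85 (SE 0.13) from E14.5 to E18.5.

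S100a8 and S100a9 encode the calcium-binding proteins that form calprotectin, the most abundant cytosolic protein of neutrophils. The S100a8 log2 ratios were 0.21, -0.10 and 0.12 on the E14.5 arrays, 3.00, 3.49 and 3.40 on the E18.5 arrays, 2.52 and 3.69 on the P5 arrays, and -2.58, -1.89 and -2.43 on the P56 arrays. The P5 arrays lay on either side of all 3 E18.5 arrays, and the P5 change of -0.19 (SE 0.30) became 0.11 with quantile normalization and 0.025 with median centring. From E14.5 to E18.5 S100a8 changed by 3.22 (SE 0.27) and from P5 to P56 by -5.40 (SE 0.30).

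The S100a9 log2 ratios were 0.21, 0.01 and 0.31 on the E14.5 arrays, 4.44, 4.78 and 4.67 on the E18.5 arrays, 3.12 and 4.62 on the P5 arrays, and -3.60, -3.03 and -3.41 on the P56 arrays. The Cy5 spot was saturated on all 3 E18.5 and both P5 arrays, so the ratios at those stages are not measured levels. In the Cy5 channel alone, after loess and scaling between arrays, E18.5 was at least 5.50-fold higher than E14.5, and P5 was at least 61.0-fold higher than P56. These bounds carry the dye bias that arrays without a dye swap leave. The Cy3 intensity of the same spot, which holds the same reference RNA on every array, was 6235 to 9243 at E14.5 and 9235 to 12464 at P56, but 2313 to 3530 at E18.5 and 6866 and 2460 at P5. The part of this lower reference signal in the S100a9 ratios was not tested.

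**Figure D2:**
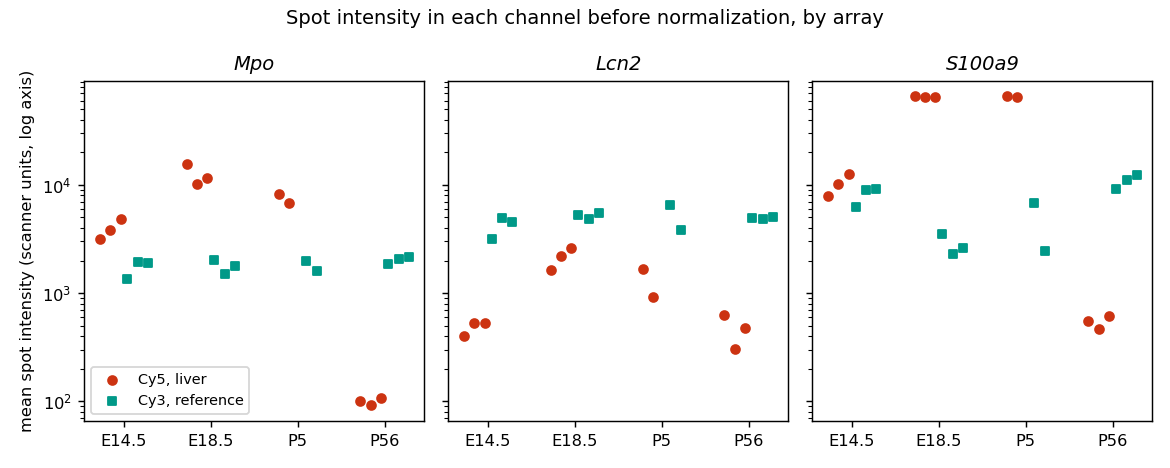
Mean spot intensity before normalization, in scanner units on a log axis, for Mpo, Lcn2 and S100a9, with 1 red circle (Cy5, liver) and 1 green square (Cy3, adult reference) per array. The S100a9 Cy5 points at E18.5 and P5 sit at the ceiling of the scanner while its Cy3 points fall as low as 2313, whereas the Cy3 points lie between 1355 and 2148 for Mpo and between 3192 and 6533 for Lcn2.

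Chi3l3 encodes a chitinase-like protein of myeloid cells and macrophages, also known as Ym1. Its log2 ratios were -3.53, -4.14 and -3.70 on the E14.5 arrays, 2.34, 2.00 and 2.03 on the E18.5 arrays, 0.96 and 1.81 on the P5 arrays, and -2.56, -1.90 and -2.58 on the P56 arrays. With Lcn2, Chi3l3 was a gene whose E14.5 arrays were lower than its P56 arrays, by 1.45 in the mean (SE 0.24), against 0.75 (SE 0.13) for Lcn2, but quantile normalization turned these changes to -0.59 and -1.28. Its rise of 5.91 (SE 0.24) from E14.5 to E18.5 was the largest of the 8 genes without saturated spots and ranked at the 99.97th percentile of all genes. Chi3l4, its close paralog in the late granule list, rose at least 8.10-fold in the Cy5 channel, where its E14.5 spots were not well above background, and how far the probes share transcripts was not tested.

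**Figure D3:**
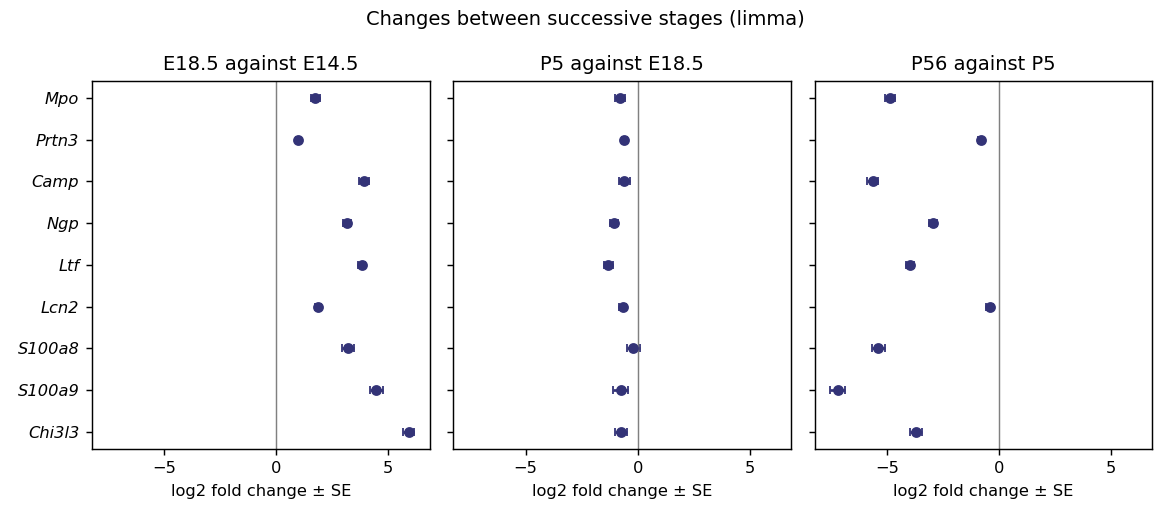
Log2 fold change (x axis) with its standard error from limma for each gene over the 3 successive steps of development. All 9 points are right of 0 from E14.5 to E18.5 (0.99 to 5.91) and left of 0 from P5 to P56 (-7.21 to -0.43), and the points from E18.5 to P5 lie between -1.31 and -0.19. Those of S100a9 rest on saturated spots.

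The counts that follow describe genes chosen with earlier results of these data known, and are not a test of them. Between the embryonic stages 9 of 9 genes were higher past an adjusted p of 0.05 (limma), where 24.6% of all genes were higher by the same rule. The arrays of 9 did not overlap, against 30.9% of genes. For P56 against P5, 9 of 9 were lower, against 24.7% of all genes, and 9 did not overlap, against 33% of genes. For P5 against E18.5, 5 of 9 were lower past the threshold (Mpo, Prtn3, Ngp, Ltf and Lcn2), against 6.4% of all genes. The arrays of 7 did not overlap in that comparison, against 21.5% of genes. For P56 against E14.5, 7 were lower and 2 higher, against 34.8% and 36.1% of all genes, with changes of -3.93 for Mpo to -0.44 for Prtn3 among the lower ones. With S100a9 left out the medians over the 8 other genes were 3.19, -0.71 and -3.85 for the 3 successive steps and -1.17 for P56 against E14.5, where the median with it was -1.48.

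Each array held 43379 spots without controls, of which 16790 to 25718 were well above background in Cy5, lowest on P56 replicate 2. Replicates, which the labels call biological, were correlated over all probes that were not controls, dim ones included. Pearson's r was 0.981 to 0.984 among the E14.5 arrays and 0.954 to 0.972 among the E18.5 arrays. It was 0.885 between the P5 arrays and 0.810 to 0.920 among the P56 arrays. The stages were scanned in part on different occasions, and within 1 scan the differences had the same direction. E18.5 replicate 1 was scanned with the E14.5 arrays, and its log2 ratios were above their mean by 1.13 to 6.13 over the 9 genes, with a median of 3.10. P5 replicate 3 was scanned with the P56 arrays, which lay below it, with a median difference of -4.15 and a range of -6.00 to -0.54 over the genes other than S100a9, whose spot was saturated on P5 replicate 3. No scan held both E18.5 and P5, and none held both E14.5 and P56. Scan and stage therefore cannot be told apart for P5 against E18.5 or for P56 against E14.5. The 2 P5 arrays came from different scans, and replicate 3 was above replicate 2 for Mpo, Camp, Lcn2, S100a8 and Chi3l3, while for S100a9, saturated on both, the order was not measured.

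The adult reference itself gave Cy3 signal at these spots, lowest for Prtn3, at 86 to 140. Whether each Cy3 spot was above background was not tested. Every P56 array was below the reference for 9 of 9 genes, against 39.4% of all genes, and the mean P56 log2 ratio was below -1 for 8 of 9, against 5.74% of genes. The exception was Prtn3, at -0.25 ± 0.0717 (SD, n = 3). The median P56 ratio of the 9 was -2.35, beside -0.02 for all genes. The 2 adult RNA sources were always in opposite dyes, so dye and source cannot be told apart.

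Across the 11 arrays the 9 genes gave 36 pairs, with Pearson's r of 0.42 to 0.997 and a median of 0.925. S100a8 and S100a9, the calprotectin partners, had an r of 0.997, but the S100a9 values at E18.5 and P5 come from saturated spots. Among pairs without S100a9, Ngp and Ltf had the highest r, also 0.997. Mpo and Lcn2 had the lowest. The arrays share their stages and the reference, and these values describe the course over stages without a test. Outside the 9, the genes whose pattern was most like that of Mpo were Mgst2 (r = 0.994), Arhgdib (0.993), Usp25 (0.991), Stfa1 (0.990) and Rac2 (0.990). Those most like Camp were Ms4a3 (r = 0.994), CF584628 (0.993), Vcam1 (0.988), ENSMUST00000077110 (0.987) and 2010005H15Rik (0.987).

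Other neutrophil genes moved in the same direction between the embryonic stages. In 4 lists of azurophil granule, late granule, receptor and NADPH oxidase genes, written with earlier results of these data known, 41 genes were tested. The late granule list also holds other products of late-stage neutrophils. The azurophil list also holds Ms4a3, a membrane protein, and Serpinb1a, a protease inhibitor. Of the 41 genes, 38 were higher at the later embryonic stage by limma at an adjusted p of 0.05, against 24.6% of all genes. The median change of the 41 was 1.57. Some of them were not well above background at E14.5 and passed the filter on dim spots through later stages. The count of 38 is therefore in part set by the filter. Of the 18 genes well above background on every array, 17 were higher. At P5 20 of the 41 were lower than at E18.5 and 1 was higher, against 6.4% and 7.32% of all genes, with a median of -0.60. The 20 became 4 with the scanner software's processed signals, 1 in the authors' table and 0 with the methods' t-test after Benjamini-Hochberg adjustment. At P56 32 were lower than at P5, with a median of -1.10 over the 41, where 24.7% of all genes were lower. Of the 41, 17 were not well above background on any P56 array, so that their change is a bound. For P56 against E14.5, 9 were higher and 13 lower, against 36.1% and 34.8% of all genes. These counts became 1 and 24 with quantile normalization and 1 and 20 with median centring, which put the median of all genes at -0.33.

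All 7 azurophil granule genes tested rose between the embryonic stages, by a median of 1.74, against 24.6% of all genes. At P56 6 of 7 were lower than at P5, against 24.7% of all genes. With quantile normalization 4 of the 7 passed the threshold between the embryonic stages. Ctsg, the serine protease cathepsin G, rose by 3.15 (SE 0.20, limma adjusted p = 2.0e-07) and changed by -3.43 from P5 to P56 (SE 0.23, limma adjusted p = 4.0e-07). Ela2, neutrophil elastase, rose by 2.00 (SE 0.16) and was at least 3.22-fold lower at P56, where no array had its spot well above background, than at P5. Serpinb1a, an inhibitor of these proteases, rose by 2.04 (SE 0.24) and changed by -1.68 (SE 0.27) from P5 to P56. Ms4a3, a membrane protein of granulocyte precursors, rose by 1.74 (SE 0.16) and was at least 9.48-fold lower at P56 than at P5. From E18.5 to P5, 1 of the 7 passed the threshold as lower, against 6.4% of all genes. That gene was Ela2, with a change of -0.59 (SE 0.18, limma adjusted p = 0.049).

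The late granule genes had the largest median change of the 4 lists between the embryonic stages. All 16 tested rose over that step, by a median of 2.24, against 24.6% of all genes. Cd177, Chi3l4, Olfm4, Mmp9, Padi4 and Fcnb were well above background on every array only at E18.5 and at P5. They passed the filter on dim spots through those stages. The counts of rises here and of falls by P56 are therefore in part set by the filter. Retnlg, a secreted protein of the resistin family, rose by 3.80 (SE 0.21, limma adjusted p = 5.2e-08), Mmp8, the neutrophil collagenase, by 3.48 (SE 0.12, limma adjusted p = 2.9e-09), and Anxa1, annexin A1, by 3.26 (SE 0.12, limma adjusted p = 4.0e-09). At P5 14 of the 16 were lower than at E18.5, against 1 of the 7 azurophil genes and 6.4% of all genes. The difference between the lists was not tested. Mpo and Prtn3, of the azurophil granules but outside these lists, passed as lower too, as did Ngp, Ltf and Lcn2, while Camp did not. With the scanner software's processed signals 3 of the 16 and 0 of the 7 were lower. Mmp8 showed the largest change, -2.05 (SE 0.14), followed by Mmp9, the gelatinase of the granules named for it, at -1.33 (SE 0.16). At P56 14 of 16 were lower than at P5, against 24.7% of all genes. Anxa1, measured on all 3 P56 arrays, changed by -2.64 (SE 0.14) from P5 to P56. The stefins, inhibitors of cysteine proteases, were above the adult reference already at E14.5, with a Stfa1 log2 ratio of 4.66 ± 0.103 (SD, n = 3). Stfa2 was at least 73.7-fold lower at P56 than at P5 in the Cy5 channel. Stfa1, Stfa2 and Stfa3 are near-identical copies, and their probes may measure one another.

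Of 12 receptor genes 10 rose between the embryonic stages, by a median of 1.08, against 24.6% of all genes. Il8rb and Itgam were well above background on every array only at E18.5 and P5, which favours a call as higher at E18.5. At P56 6 were lower than at P5, against 24.7% of all genes. The count of 6 became 11 with median centring and 9 with processed signals. Fpr1, a receptor for formyl peptides, rose by 1.67 (SE 0.16), and Clec5a and Trem3, activating receptors of myeloid cells, by 1.64 (SE 0.15) and 1.75 (SE 0.11). Csf3r, the receptor for the growth factor of granulocytes, was higher at P56 than at E14.5 by 0.89 (SE 0.12, limma adjusted p = 2.4e-05). Sirpb1 was the 1 gene of the 41 that was higher at P5 than at E18.5, by 1.23 (SE 0.28, limma adjusted p = 0.015), and it was not called with quantile normalization. Of the 6 NADPH oxidase genes 5 rose from E14.5 to E18.5, against 24.6% of all genes. All 6 were lower at P56 than at P5, against 24.7% of all genes. Cybb, the membrane subunit that carries the electrons, rose by 2.65 (SE 0.17, limma adjusted p = 1.7e-07), and Rac2, the small GTPase of the complex, by 0.77 (SE 0.15) and then changed by -1.86 (SE 0.17) from P5 to P56.

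Among 10 transcription factors of granulocyte and monocyte differentiation, 6 rose between the embryonic stages and 1 fell, against 24.6% and 22.8% of all genes. With quantile normalization 5 rose and 0 fell. Cebpa rose by 2.31 (SE 0.15, limma adjusted p = 2.7e-07), Egr1 by 2.17 (SE 0.19), Cebpd by 1.70 (SE 0.16), Cebpb by 1.52 (SE 0.11), Irf8 by 1.38 (SE 0.13) and Gfi1, the repressor needed for neutrophil maturation, by 1.05 (SE 0.11). Lmo2, a factor of early blood cells, was the gene that fell, with a change of -0.67 (SE 0.15, limma adjusted p = 0.0028). Hepatocytes also make C/EBP alpha and beta. Cebpb was higher again at P56 than at P5, by 1.52 (SE 0.12), as were 20.9% of all genes, and Cebpa differed by 0.07 (SE 0.17, limma adjusted p = 0.78). Myb, a factor of proliferating progenitors, differed by 0.19 (SE 0.21) between the embryonic stages, changed by -1.28 (SE 0.24, limma adjusted p = 0.0054) from E18.5 to P5 and was at least 6.18-fold lower at P56 than at P5. From P5 to P56 Irf8, Klf4, Egr1 and Lmo2 fell as well, with log2 changes of -0.92, -0.89, -2.25 and -1.64, and Gfi1, not well above background on any P56 array, was at least 1.83-fold lower. Runx1 changed by -0.17 (SE 0.21) between the embryonic stages and Klf4 by 0.14 (SE 0.24), neither past the threshold. Sfpi1, which encodes PU.1, was on the array but did not pass the filters.

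**Figure D4:**
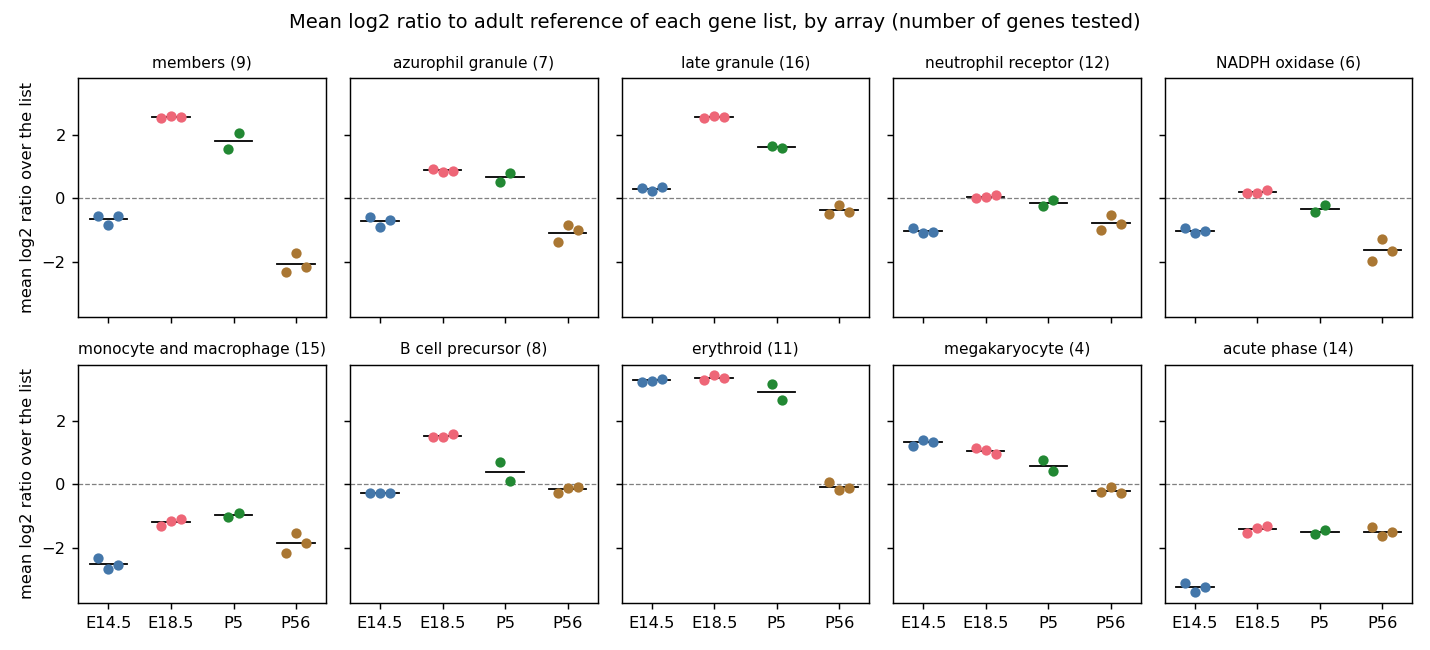
Mean log2 ratio to the adult reference over the tested genes of each list (number in the panel title), with 1 point per array and a line at the stage mean. The 9 genes and the late granule list peak at E18.5, the erythroid list spans 3.23 to 3.35 on the E14.5 arrays and 3.30 to 3.45 on the E18.5 arrays, and the monocyte and macrophage list stays below the reference throughout.

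Markers of other blood cells moved with the neutrophil genes in part. All 15 monocyte and macrophage genes rose from E14.5 to E18.5 by limma, against 24.6% of all genes, but with quantile normalization only 4 passed. The mean log2 ratio of the list per array was -2.67 to -2.32 at E14.5 and -1.32 to -1.09 at E18.5. Clec4f, a lectin of Kupffer cells, rose by 2.56 and Marco, a scavenger receptor, by 1.77. At P5 the list stood at -1.04 to -0.91, above its E18.5 range. At P56 10 of 15 were lower than at P5, against 24.7% of all genes. Of 8 B cell precursor genes 7 rose between the embryonic stages and 7 fell again by P5, against 24.6% and 6.4% of all genes. The spots of Cd79a, Igll1, Ebf1, Pax5 and Rag1 were not well above background on any E14.5 array. These genes passed the filter on dim spots through other stages, so the count of rises is in part set by the filter. Vpreb1, a part of the surrogate light chain, rose by 3.93 and then changed by -2.51.

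Erythroid markers followed another course. Of 11 genes 3 passed as higher (Hba-a1, Hbb-b1 and Slc4a1) and 1 as lower (Klf1) at E18.5 than at E14.5, with a median of -0.02. Among all genes 24.6% were higher and 22.8% lower by the same rule. The globin genes Hba-a1 and Hbb-b1 had saturated Cy5 spots on all arrays of E14.5, E18.5 and P5, so their change between those stages was not measured. Between P5 and P56 11 of 11 erythroid genes were lower at P56, by a median of -2.83, against 24.7% of all genes. With the Cy5 channel alone 7 of the 11 fell, and 0 rose, from E14.5 to E18.5. Slc4a1, the anion exchanger of red cells, had stage means of 3.64, 4.07, 3.96 and -0.14. Of 4 megakaryocyte genes 1 fell from E14.5 to E18.5, against 22.8% of all genes. Of 7 mast cell, basophil and eosinophil genes 1 rose, against 24.6% of all genes. The latter list had means of 0.08 to 0.42 on the E14.5 arrays and 0.32 to 0.58 on the E18.5 arrays. The part of these cells in the change of the 9 genes was not tested.

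Hepatocyte genes, which the labelled cell types should express, were measured on the embryonic arrays and changed too. Afp, the fetal serum protein, had a saturated Cy5 spot on all E14.5, E18.5 and P5 arrays. Of 9 hepatocyte genes 7 rose between the embryonic stages, against 24.6% of all genes, among them Cps1 by 5.03 and Apoa1 by 3.36. With quantile normalization 6 rose and 1 fell. Hepatocytes also make Lcn2, and of 14 acute phase genes of the liver 13 rose over the same step, against 24.6% of all genes. However, with quantile normalization 7 rose and 6 fell, and with median centring and with the Cy5 channel alone 9 rose. Fgg, a fibrinogen chain, was at least 14.3-fold higher at E18.5 in the Cy5 channel. The acute phase list had means of -1.62 to -1.33 at P56 and -1.55 to -1.43 at P5, ranges that overlap. Single genes of the list nevertheless moved both ways, with changes of -1.84 to 2.73 from P5 to P56. Of the 14, 4 were higher and 5 lower at P56, against 20.9% and 24.7% of all genes. Lcn2 had its smallest change over that step. Which cells the Lcn2 signal came from was not tested.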

How the data were processed

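Agilent arrays with 2 colours, 11 in all, measured RNA of normal mouse liver from 4 stages, and samples were grouped by their labels. The intensity of every spot in Cy5 and Cy3 was deposited as Feature Extraction 9.5.1.1 wrote it, beside its background and flags, with probe positions on build mm7 and without scaling between arrays. A gene table of log2 ratios that the authors normalized by lowess and averaged served as an alternative only. Per the labels, limma was among the tools of the authors' processing.

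Background was corrected here by normexp (offset 50) on mean signals, and loess was run within each array. Control and outlier spots were left out. Probes had to be well above background in Cy5 on every array of 1 or more stages, with no more than 1 value missing per stage, and each gene was read from its brightest probe. Genes were fitted over all 11 arrays with limma 3.58.1 in R 4.3.3, with p-values adjusted by Benjamini-Hochberg and called under 0.05, and the fit was tested on simulated data. Figures were drawn with matplotlib in Python. The number of arrays limits the precision.

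The 9 genes and all gene lists were chosen with earlier results of these data known. No p-values are therefore given for the 9 genes, and their counts past the threshold are a description. Genes of the lists are named when they had the largest changes past the threshold with arrays that did not overlap. The limit was 4 per list and comparison for neutrophil genes and 3 for other cells. Adjusted p-values printed for list genes are over all genes tested, and after this choice they are a description. All tested transcription factors are named, and for likeness the 5 genes with the highest r. Alternatives were other background corrections, normalizations, filters and probe choices, the Cy5 channel alone, the authors' table, blocks by replicate or by scan, leaving out each array, and the methods' t-test. Leaving S100a9 out and counting each list under other scalings were chosen after seeing the data. Coordinates of genes on mm7 and protein sequences were not used here.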

Additional observations from a re-analysis of the deposited data

How the results depend on the processing

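Of the values of single genes under settings other than leaving out an array, 423 moved by less than the spread between replicates, 123 by more with the same sign, and 4 turned sign. Those 4 were Chi3l3 (-0.59) and Lcn2 (-1.28) for P56 against E14.5 with quantile normalization, and S100a8 for P5 against E18.5 with median centring (0.025) and quantile normalization (0.11). With each array left out in turn S100a8 ran from -0.78 (without P5 replicate 3) to 0.39 (without P5 replicate 2).

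The median of the 9 genes for E18.5 against E14.5 was 3.22, and it was 3.54 with the Cy5 channel alone, 2.90 with quantile normalization and 3.81 for the 7 genes well above background on every array. For P5 against E18.5 the median of -0.74 became -0.44 with quantile normalization. For P56 against P5 the median of -3.97 became -5.02 in the authors' table, -3.73 with the mean over probes, -4.85 with median centring, -4.44 with no background subtraction, -4.50 with an offset of 10, -5.42 with the scanner software's processed signals, -4.83 with quantile normalization and -4.86 for genes above background on every array. For P56 against E14.5 the median of -1.48 became, in the same order, -2.46, -1.25, -2.30, -1.78, -1.78, -2.75, -2.25 and -2.32, and -1.17 with S100a9 left out. Median centring put the median of all genes at -0.47 for P56 against P5 and at -0.33 for P56 against E14.5. With each array left out in turn the medians ran from 3.13 to 3.37, -0.95 to -0.57, -4.17 to -3.82 and -1.67 to -1.32. The lowest value of P5 against E18.5 came without P5 replicate 3.

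Of the 41 related neutrophil genes, 17 of the 18 above background on every array rose between the embryonic stages. For P5 against E18.5 the 1 higher gene became 0 in the authors' table, with the methods' t-test after Benjamini-Hochberg adjustment and for genes above background on every array, and 0 to 2 with an array left out. The 20 lower genes became 1 in the authors' table, 4 with processed signals, 0 with the adjusted t-test, 3 for genes above background on every array and 13 (without P5 replicate 3) to 19 with an array left out. For P56 against P5 the 32 lower genes became 6 with the adjusted t-test and 13 for genes above background on every array. For P56 against E14.5 the 9 higher genes became 1 with median centring, 1 with quantile normalization and 5 with the adjusted t-test, and the 13 lower genes became 20 with median centring, 20 with no background subtraction, 23 with processed signals, 24 with quantile normalization and 5 for genes above background on every array. The filter on every array tests fewer genes, and the cause of the other shifts was not tested.

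Whether the replicate numbers pair the arrays was not settled. Deviations from the stage means correlated at -0.306 to 0.187 for the 15 pairs of arrays with the same number and at -0.458 to 0.457 for the 30 other pairs. Deviations cancel out within a stage, so with so few arrays these correlations cannot exclude a pairing. With the replicate number as a block the medians were 3.22, -0.71, -3.96 and -1.48, and the replicate block moved no count of related genes by more than 1.5 times.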
